A study of Homo sapiens with 20 samples.

Results

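Secreted ligands of the WNT, FGF, BMP and TGF-beta, and hedgehog families were followed in a map of chromatin contacts of human pluripotent cells. The set held 49 genes of 19939 protein-coding genes, with 19 WNT genes, 13 FGF genes, 14 genes of BMP and TGF-beta type ligands and 3 hedgehog genes. A contact was assigned to a gene where the captured fragment (the bait) or the fragment joined to it (the other end) overlapped the gene body widened by 1 kb, with both fragments on the same chromosome. By this rule 47 of the 49 genes had at least 1 contact, and they held 1352 of the 182303 contacts within chromosomes. FGF2 and FGF7 had none.

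These proteins carry signals between cells of the embryo. WNT proteins bind Frizzled receptors and either stabilise beta-catenin or act through other routes, FGFs activate receptor tyrosine kinases, BMPs, NODAL and activins drive SMAD proteins through serine/threonine kinase receptors, and hedgehog proteins release Smoothened from inhibition by Patched. In pluripotent cells most genes of this kind are held inactive by Polycomb proteins until a lineage calls for them, while FGF, NODAL and activin signals maintain the primed state. Many ligand genes lie beside long stretches without genes that hold their enhancers, and SHH with its limb enhancer in an intron of LMBR1 is the textbook case.

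The assay was Poised Enhancer Capture Hi-C, in which ligation products are enriched with probes for poised enhancers, elements that carry Polycomb marks before they are used. There were 20 libraries, 2 for each of 10 conditions. Naive cells (day 0) of the human embryonic stem cell line HNES1 were grown on mouse feeder cells in N2B27 medium with the MEK inhibitor PD0325901, LIF, the protein kinase C inhibitor Gö6983 and XAV939, a tankyrase inhibitor that blocks WNT signalling. The transition to the primed state was run in N2B27 with XAV939 alone, and cells were taken on day 1, then on days 3, 5, 7 and 10, and last on day 14, the primed end point. Day 14 cells were differentiated further. For neuroectoderm (NE) they were kept for 10 days with A8301 and LDN193189, inhibitors of activin/NODAL and BMP receptors, and sorted as CD56+ EpCAM- cells. For definitive endoderm (DE) the first medium held Activin A, the GSK3 inhibitor CHIR99021, FGF2, the PI3K inhibitor PI-103, BMP4 and heparin, and the next held Activin A, PI-103, FGF2, LDN193189 and heparin. H9, another primed embryonic stem cell line, was grown in mTeSR-E8. Several conditions thus received a ligand of these families, or an inhibitor of its pathway, from the medium. HNES1 and H9 are single lines, and they differed in medium as well. RNA was not measured, so neither ligand expression nor the identity of the cells could be checked here.

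The values were interaction scores, with 1 column per condition that pooled both libraries. Every listed pair of fragments scored 5 or more in at least 1 condition, so each contact here was called at least once. Contacts scoring 5 or more in a condition count as called there, and a gene's calls are the number of its contacts that did so. With 1 value per condition, neither a replicate error nor a test between conditions could be had. The depth of the libraries was unknown. Intervals below are exact 95% intervals of a ratio of 2 counts and cover counting error only. Called contacts within chromosomes, over all genes, numbered 18272 for naive cells, 20498 for day 14, 23764 for H9, 29563 for DE and 32672 for NE, so each ligand count is given beside that total. Calls between chromosomes numbered 25414 to 38446 in the pluripotent conditions, 187492 in DE and 155291 in NE.

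Ligand genes were touched by listed baits more often than other genes. A bait is listed only if it had a call in some condition, within or between chromosomes. Probes without a call cannot be seen, so this share is not the coverage of the capture design. Below, a gene with a bait means a gene with a listed bait. A listed bait touched 43 of the 49 ligand genes (87.8%), against 32.0% of all protein-coding genes. All 19 WNT genes and all 3 hedgehog genes had one. FGF1, FGF2, FGF7, BMP5, GDF3 and LEFTY1 had none, so contacts of these 6 genes could be seen only from baits elsewhere, and FGF1, BMP5, GDF3 and LEFTY1 together showed 5. Ligand genes with a bait had 4.47 listed baits on average and 32.0 contacts, against 3.03 baits and 25.6 contacts for all genes with a bait. Counts of genes with a call, with more calls or with fewer calls are therefore also given against the genes with a listed bait.

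Promoter letters differed along the same line. Promoters of 34 ligand genes were matched in the RefSeq table (GRCh38.p14), as the 250 bases before the annotated start. CG dinucleotides, which are dense in the CpG islands that Polycomb proteins occupy, had a median of 26.0 in 29 ligand promoters whose gene had a listed bait and 2.00 in the 5 without. FGF2 was the exception among those 5, with 33. Over all promoters of this length the medians were 20.0 for genes with a bait and 16.0 for genes without. The motif GATC, searched on both strands (it reads the same on each), was in 32.4% of ligand promoters and 34.0% of all promoters. The sequences of 5 promoters are shown 5′ to 3′ with each CG in capitals, because the first 3 lie inside a bait described below, the fourth lies in a contacted fragment, and GDF3 shows a promoter with 0 CG and no bait. WNT4 is on the minus strand at chr1:22143098-22143347 and has 40 CG. WNT5B is on the plus strand at chr12:1628981-1629230 with 7. SHH is on the minus strand at chr7:155812464-155812713 with 7. WNT6 is on the plus strand at chr2:218859555-218859804 with 32, and GDF3 is on the minus strand at chr12:7695776-7696025.
WNT4: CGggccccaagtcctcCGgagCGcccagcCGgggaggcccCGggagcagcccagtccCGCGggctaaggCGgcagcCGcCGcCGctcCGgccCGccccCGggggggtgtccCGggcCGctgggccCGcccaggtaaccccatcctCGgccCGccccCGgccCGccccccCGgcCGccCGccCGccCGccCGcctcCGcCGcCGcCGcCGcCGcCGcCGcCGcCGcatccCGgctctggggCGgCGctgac
WNT5B: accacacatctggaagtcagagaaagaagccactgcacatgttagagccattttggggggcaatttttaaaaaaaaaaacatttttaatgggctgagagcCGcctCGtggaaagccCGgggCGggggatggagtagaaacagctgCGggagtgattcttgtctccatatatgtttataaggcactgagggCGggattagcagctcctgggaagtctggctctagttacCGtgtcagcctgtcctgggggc
SHH: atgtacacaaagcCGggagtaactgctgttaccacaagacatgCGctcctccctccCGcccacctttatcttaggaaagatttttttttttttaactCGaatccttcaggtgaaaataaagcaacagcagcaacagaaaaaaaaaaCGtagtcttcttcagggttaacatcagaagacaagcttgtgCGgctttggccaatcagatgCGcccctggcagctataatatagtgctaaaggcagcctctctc
WNT6: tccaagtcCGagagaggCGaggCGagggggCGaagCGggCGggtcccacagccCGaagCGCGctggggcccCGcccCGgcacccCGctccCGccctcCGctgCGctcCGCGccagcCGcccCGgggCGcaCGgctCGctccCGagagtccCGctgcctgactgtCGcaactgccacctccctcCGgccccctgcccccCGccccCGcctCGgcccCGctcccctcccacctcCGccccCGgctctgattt
GDF3: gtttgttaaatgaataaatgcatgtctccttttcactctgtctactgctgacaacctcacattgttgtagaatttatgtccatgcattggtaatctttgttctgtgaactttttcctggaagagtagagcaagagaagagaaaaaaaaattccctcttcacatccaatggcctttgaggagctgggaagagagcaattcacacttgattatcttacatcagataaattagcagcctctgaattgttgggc

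The number of calls varied widely among the ligand genes. Summed over the 10 conditions it ran from 145 for GDF6 and 124 for WNT5A to 1 each for BMP5, GDF3, LEFTY1 and LEFTY2. Of all 49 genes 35 had a call in naive cells, 34, 36, 39, 36 and 36 on days 1, 3, 5, 7 and 10, 36 at day 14, 35 in H9 cells, 38 in DE and 41 in NE. Like with like can be set only among genes with a bait. Of the 43 ligand genes with a bait 34 (79.1%) had a call in naive cells, where 70.2% of all genes with a bait and 47.2% of all genes with a contact did. At day 14 it was 36 (83.7%), beside 71.4% of genes with a bait and 48.3% of all genes. In H9 the share was 81.4% beside 74.7% and 51.6%, in DE 86.0% beside 78.1% and 55.1%, and in NE 95.3% beside 80.2% and 57.8%. On days 1, 3, 5, 7 and 10 it was 79.1%, 81.4%, 90.7%, 81.4% and 81.4%, where genes with a bait had 69.6%, 75.8%, 74.3%, 69.0% and 70.0% and all genes 46.9%, 53.2%, 51.5%, 46.5% and 47.5%. The share of ligand genes was the higher one in each of the 10 conditions, and these ligand genes also had more baits per gene.

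**Figure D1:**
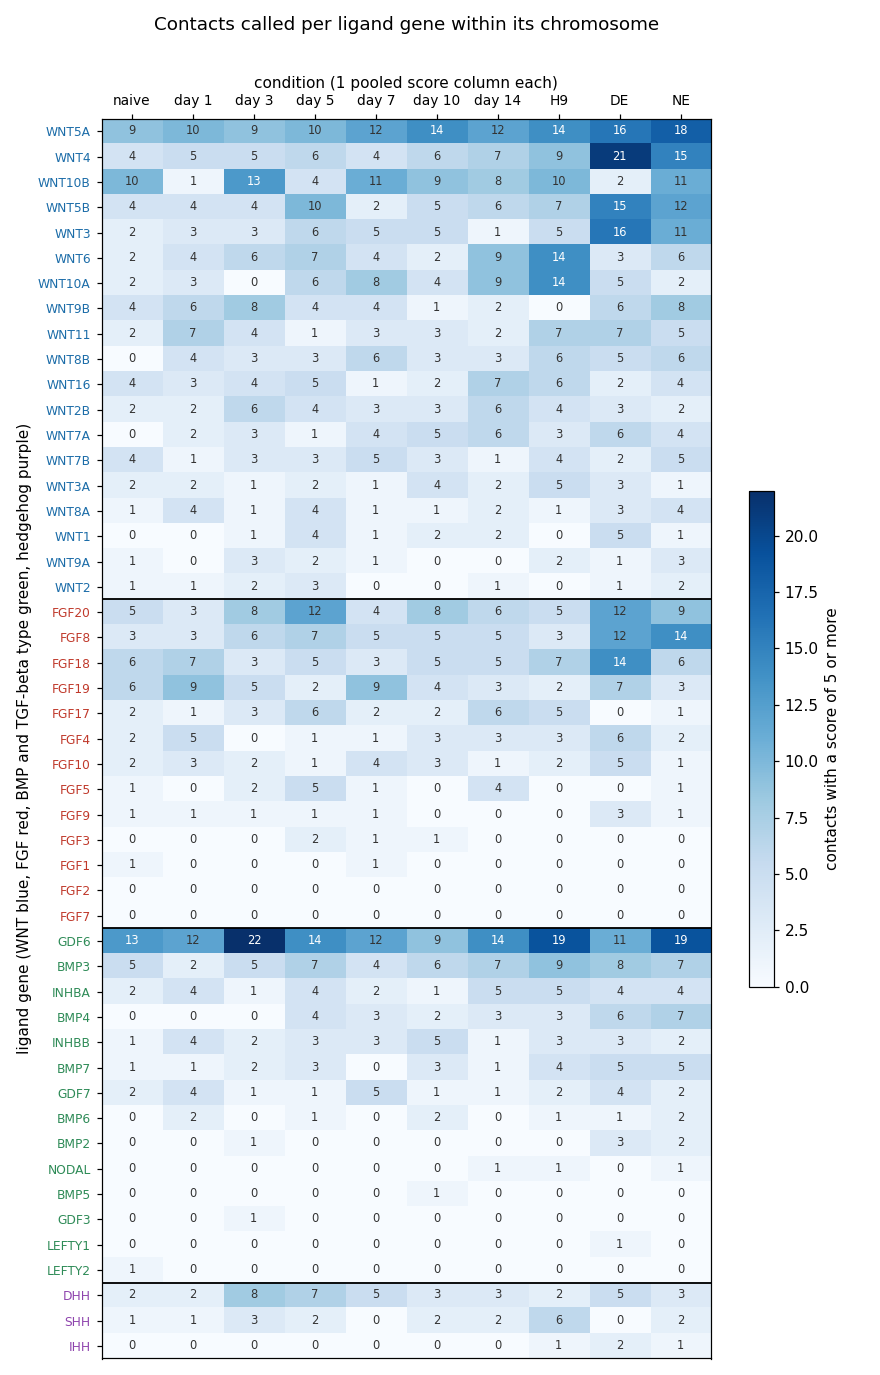
Number of contacts called (score of 5 or more) for each of the 49 ligand genes (rows, grouped by family and ordered by their total) in each of the 10 conditions (columns, 1 pooled column each); darker cells hold more calls. GDF6 and WNT5A had 9 or more calls in every condition, WNT4 reached 21 in DE, and FGF2 and FGF7 stayed at 0.

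During the transition the ligand genes had 110 calls in naive cells, then 125, 154, 167, 137 and 134 on days 1, 3, 5, 7 and 10, and 153 at day 14. Per 1000 calls within chromosomes this was 6.02 (95% interval 4.95 to 7.25) in naive cells, 7.82 (6.69 to 9.10) on day 5 and 7.46 (6.33 to 8.74) at day 14. The intervals of naive cells and day 14 overlapped. WNT genes with a bait had a mean of 2.84 calls per gene in naive cells and 4.53 at day 14, while all genes with a bait had 2.62 and 2.98. FGF genes with a bait had 2.80 and 3.30, and BMP and TGF-beta type genes 2.27 and 3.00. WNT genes also had 5.26 listed baits on average, against 3.03 for all genes with a bait. Per listed bait the order was the other way: WNT genes had 0.540 calls in naive cells, 0.860 at day 14 and 1.22 in DE, and all genes with a bait and a contact had 0.853, 0.969 and 1.38.

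**Figure D2:**
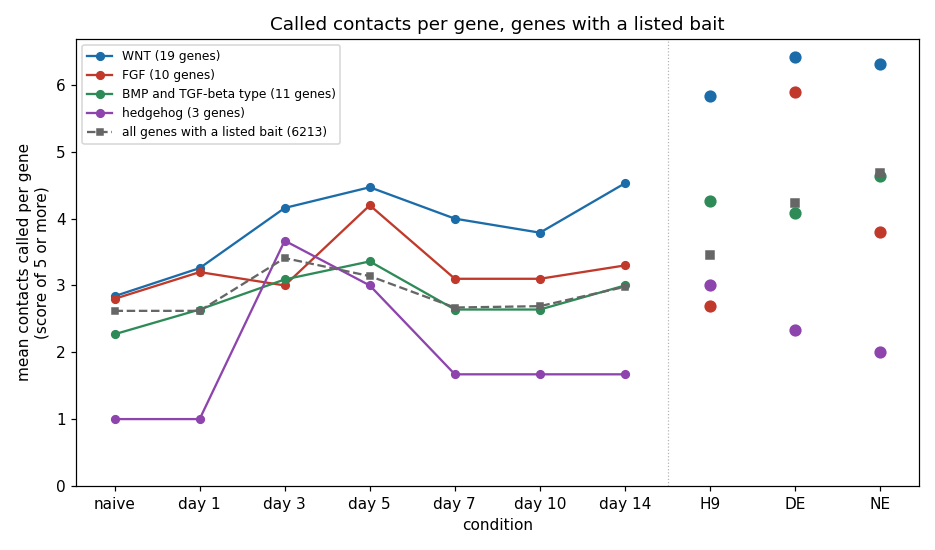
Mean number of called contacts per gene (vertical axis) for the genes of each family with a listed bait, by condition; joined points are the HNES1 time course, separate points H9, DE and NE, and grey squares all 6213 protein-coding genes with a contact and a listed bait. WNT genes, with 5.26 baits per gene against 3.03, lay above the grey squares in all 10 conditions but below them per listed bait (0.860 against 0.969 at day 14), and FGF genes were at 5.90 in DE against 4.24 for all genes.

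The first comparison asked how contacts of naive cells differ from those of primed cells at day 14. The WNT family went from 53 to 82 calls, a ratio of 1.55 (1.08 to 2.23), against 1.12 for all contacts within chromosomes. WNT6 and WNT10A each went from 2 to 9 calls and WNT7A, a WNT of limb and nervous system development, from 0 to 6. These were the 3 largest changes, but WNT6 and WNT10A adjoin and share contacts. Together they had 3 distinct calls in naive cells and 14 at day 14. FGF genes went from 29 to 33 (ratio 1.14, 0.670 to 1.94), BMP and TGF-beta type genes from 25 to 33 (1.32, 0.761 to 2.32) and hedgehog genes from 3 to 5. For all 49 genes the ratio was 1.39 (1.08 to 1.79). With the same number of top-scoring contacts taken in each condition, the WNT counts were 53 and 74, a ratio interval of 0.968 to 2.03. For all 49 genes they were 110 and 135, a ratio of 1.23 (0.947 to 1.59), so both intervals then included 1. More calls at day 14 were found for 23 of 47 ligand genes, where 28.9% of all genes and 39.0% of genes with a bait had more, and fewer calls for 12, where 25.6% of all genes and 33.2% of genes with a bait had fewer. A single contact was called in both conditions, so 152 of the 153 day 14 calls (99.3%) were at pairs of fragments without a call in naive cells. Over all contacts within chromosomes this held for 19255 of 20498 day 14 calls (93.9%).

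In the comparison of the primed lines, H9 had 190 ligand calls and day 14 HNES1 had 153, a ratio of 1.24 (0.998 to 1.55) beside 1.16 for all contacts. GDF6 went from 14 to 19, WNT6 and WNT10A each from 9 to 14, and WNT11 from 2 to 7, all a difference of 5. Counted together, WNT6 and WNT10A had 14 distinct calls at day 14 and 24 in H9. The direction turned for GDF6 (to -2) and WNT10A (to -1) when contacts were assigned to the annotated gene ends alone. For WNT6 it turned (to -2) at a score of 3 or more among the listed pairs. In the BMP and TGF-beta type family 6 genes had more calls in H9 and 0 had fewer (47 calls against 33, ratio 1.42, 0.893 to 2.29). FGF genes had 27 calls in H9 and 33 at day 14, and 2 FGF genes had more and 5 fewer. Over the set 22 of 47 genes had more calls in H9 (31.5% of all genes, 42.1% of genes with a bait) and 13 had fewer (24.8% and 32.0%). Line and culture medium cannot be told apart here.

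Entry into endoderm was asked about by DE against day 14. WNT3, a ligand of gastrulation, had 16 calls in DE and 1 at day 14, and WNT4 21 and 7, the largest changes. Day 14 had the lowest WNT3 count of the 10 conditions, and day 5 had 6. WNT5B (15 and 6) and FGF18 (14 and 5) came next, each with a difference of 9. The largest losses were those of WNT10B (2 and 8), WNT6 (3 and 9) and FGF17 (0 and 6), each a difference of -6. The FGF family had 59 calls against 33, a ratio of 1.79 (1.15 to 2.83), with FGF8 at 12 against 5 and FGF20 at 12 against 6. For all ligand genes the ratio was 1.52 (1.23 to 1.87), beside 1.44 for all contacts within chromosomes. More calls were found for 29 of 47 genes (37.2% of all genes and 50.2% of genes with a bait had more) and fewer for 11 (21.3% and 25.8%). With the same number of top-scoring contacts taken in each condition, DE had 132 ligand calls and day 14 had 135, a ratio of 0.978 (0.763 to 1.25). WNT3 still had 10 calls against 1 under that setting, WNT4 13 against 7 and WNT5B 9 against 6. The FGF family had 35 against 27 there, and the interval of its main ratio (1.15 to 2.83) held the 1.44 of all contacts.

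In NE the ligand genes had 214 calls, a ratio to day 14 of 1.40 (1.13 to 1.73), while the ratio of all contacts was 1.59. WNT3 had 11 calls against 1, FGF8, a ligand of midbrain and forebrain patterning centres, 14 against 5, and WNT4 15 against 7. WNT10A had 2 against 9. More calls were found for 24 of 47 genes (41.6% of all genes, 54.9% of genes with a bait) and fewer for 11 (18.8% and 21.8%). At an equal number of calls per condition the ratio was 0.867 (0.671 to 1.12), with WNT3 at 6 against 1, FGF8 at 7 against 5 and WNT4 at 10 against 7. Day 14 was the lowest of the 10 conditions for WNT3. At its full total of 21342 calls, day 5 had 6 for WNT3, 7 for FGF8 and 6 for WNT4. The comparisons of H9, DE and NE share the day 14 column.

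Set directly against each other, NE and DE differed most in the FGF family, which had 38 calls in NE and 59 in DE, a ratio of 0.644 (0.417 to 0.985), while all contacts had a ratio of 1.11. The WNT ratio was 0.983 (0.757 to 1.28) and that of BMP and TGF-beta type genes 1.11 (0.730 to 1.69). At an equal number of calls the FGF counts were 23 and 35, a ratio interval of 0.371 to 1.14. WNT10B had 11 calls in NE and 2 in DE, GDF6 19 and 11, and FGF18 6 and 14. At an equal number of calls WNT10B had 5 and 1, GDF6 8 and 5, and FGF18 6 and 7. Over all 47 genes 18 had more calls in NE (34.1% of all genes, 43.8% of genes with a bait) and 22 fewer (26.9% of all genes, 33.5% of genes with a bait). Differences between families were not tested.

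**Figure D3:**
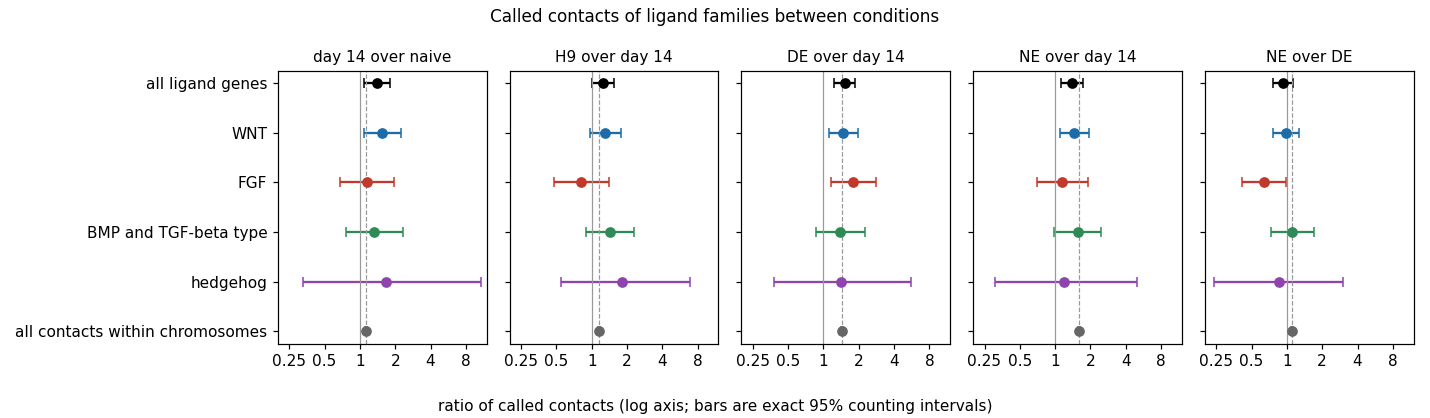
Ratio of called contacts between 2 conditions (horizontal log axis) for all ligand genes, each family and all contacts within chromosomes, in 5 panels of 1 comparison each; bars are exact 95% intervals for counting error, the solid line is a ratio of 1 and the dashed line the ratio of all contacts. The interval of the FGF family lay below 1 in NE over DE (0.417 to 0.985), and hedgehog intervals were the widest.

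WNT5A, the main ligand of the beta-catenin-independent routes, had calls in every condition. It had 9 in naive cells, 10, 9, 10, 12, 14 and 12 from day 1 to day 14, 14 in H9 cells, 16 in DE and 18 in NE. Of its 97 contacts 85 ran to higher coordinates, each of them into ERC2, the neighbouring gene for a presynaptic scaffold protein. On the other side DE had 6 calls and day 14 had 1. Of those in DE, 5 lay in CACNA2D3, a calcium channel subunit gene that had 0 calls from WNT5A at day 14, and 2 in NE. The highest score was 12.6 at day 14, between the bait at chr3:55483261-55483458 and chr3:55717644-55722769 in ERC2. That pair was also called on day 5 (5.56) and day 7 (8.99) and in NE (9.73), and scored 1.02 in H9 and 2.56 in DE. The adjoining fragment of ERC2 was called from the same bait in 5 conditions, with 11.3 at day 14.

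Its paralog WNT5B had 4 calls in naive cells, 4, 4, 10, 2, 5 and 6 from day 1 to day 14, 7 in H9 cells, 15 in DE and 12 in NE. Toward higher coordinates it met ADIPOR2, an adiponectin receptor gene, and CACNA2D4. The contact of the bait at chr12:1634410-1635202 with chr12:1788566-1793617 in these genes was called in 6 conditions, with scores of 7.47 on day 5, 8.55 on day 10, 10.9 at day 14, 9.94 in DE, 6.04 in NE and 5.05 in H9. It scored 2.94 in naive cells and below 5 on days 1, 3 and 7. Calls between 140 and 170 kb above the gene numbered 19, and those between 290 and 350 kb above it 22, so these bands held most of the calls on that side. Toward lower coordinates DE had 7 calls against 1 at day 14, and all 7 overlapped ERC1, a paralog of ERC2. The promoter printed above lies in the bait at chr12:1628556-1629450, which had 6 calls in DE, 1 at day 14 and 0 in naive cells. This bait also gave the highest score of a WNT5B contact, 15.7 on day 3 with a fragment in RAD52, a DNA repair gene, at 665 kb. That pair scored 0.00 at day 14 and 2.32 in NE, its next highest value.

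WNT4, which acts in kidney and gonad formation, had 4 calls in naive cells, 5, 5, 6, 4, 6 and 7 from day 1 to day 14, 9 in H9 cells, 21 in DE and 15 in NE. Of 65 contacts 62 ran to higher coordinates, and 52 of the 65 met a fragment that overlapped no protein-coding gene. Calls between 200 and 300 kb above the gene were 0 in naive cells, 5 at day 14, 7 in H9, and 13 in both DE and NE. Calls at any distance were spread unevenly over the baits of the gene. The bait with the WNT4 start and the CG-rich promoter printed above, chr1:22142121-22144213, had 10 calls in DE, 1 in NE and 0 to 3 in the other conditions. The bait at chr1:22141349-22141856, inside the gene body, had 7 calls in NE and 3 in DE. The bait at chr1:22140425-22140948 had 4 in each, and the next one, starting at 22140949, had 1 in NE and 3 in DE. The highest score, 10.5 in DE, joined the start bait to chr1:22395740-22401042, a fragment 27.9 kb from ZBTB40. That pair scored 7.85 in H9, 5.87 on day 10, 0.945 at day 14 and 0.00 in naive cells.

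WNT3, required for primitive streak formation, had 2 calls in naive cells, 3, 3, 6, 5, 5 and 1 from day 1 to day 14, 5 in H9 cells, 16 in DE and 11 in NE. In DE 7 of the 16 calls had both ends in WNT3 itself, against 1 at day 14 and 2 in NE. The most frequent of these, over 40.1 kb from the bait at chr17:46816349-46817346, was called in 5 conditions (naive 6.44, day 7 5.35, day 14 7.36, H9 5.41, DE 8.20). The neighbouring WNT9B had 4 calls in naive cells, 6, 8, 4, 4, 1 and 2 from day 1 to day 14, 0 in H9 cells, 6 in DE and 8 in NE. Its bait at chr17:46841347-46842437 held the most persistent contact of the set, with chr17:46937473-46943237 at 98.5 kb. It was called in 8 of 10 conditions, with scores from 5.73 on day 3 to 10.2 in DE, and 2 conditions fell short, day 14 (3.26) and H9 (4.36). That fragment overlaps GOSR2, a Golgi SNARE gene, and the RefSeq body of LRRC37A2. Baits of WNT3 and other ends in WNT9B, or the reverse, were joined by 4 contacts, each called once.

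WNT6 and WNT10A lie end to end on chromosome 2 and shared 17 contacts, so they were also counted together. The pair had 3 distinct calls in naive cells, 6, 6, 11, 9, 4 and 14 from day 1 to day 14, 24 in H9 cells, 8 in DE and 7 in NE. The highest counts were thus in the primed conditions, day 14 and H9. Of the 92 calls 58 fell between 80 and 130 kb toward higher coordinates, of which H9 had 21, day 14 had 11, DE 4, NE 3 and naive cells 2. FEV, a serotonergic transcription factor gene, and CRYBA2, a crystallin gene, lie there. The WNT10A contact with the FEV bait at chr2:218985153-218986818 was called in 6 conditions, every HNES1 time point from day 5 on (9.31, 6.91, 6.36 and 5.88), H9 (5.76) and NE (5.90). It scored 1.79 in naive cells and 0.00 in DE. The fragment with the WNT6 promoter printed above had 3 calls in H9, 1 at day 14, 1 on day 3 and 0 in the other conditions.

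WNT10B, a ligand of bone and fat development, was uneven across conditions, with 10 calls in naive cells, 1, 13, 4, 11, 9 and 8 from day 1 to day 14, 10 in H9 cells, 2 in DE and 11 in NE. Its 9 listed baits lie among many genes, and its calls went to both sides, 34 contacts to lower and 35 to higher coordinates. WNT1, 6.59 kb away, had 0 calls in naive cells, 5 in DE and 1 in NE. Both genes together had 7 calls in DE and 12 in NE. Of the remaining WNT genes WNT7A had 0 calls in naive cells, 2, 3, 1, 4, 5 and 6 from day 1 to day 14, 3 in H9 cells, 6 in DE and 4 in NE. Its contact with the bait at chr3:13657351-13658433, 18.9 kb from FBLN2, scored 9.96 at day 14, 6.57 on day 10, 7.40 in NE and 1.16 in naive cells. WNT2, WNT2B, WNT3A, WNT7B, WNT8A, WNT8B, WNT9A, WNT11 and WNT16 had between 0 and 7 calls in every condition.

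Among the FGF genes, FGF8 had 3 calls in naive cells, 3, 6, 7, 5, 5 and 5 from day 1 to day 14, 3 in H9 cells, 12 in DE and 14 in NE. Calls in DE and NE were thus above those of all pluripotent conditions, and at an equal number of calls NE had 7 and day 14 had 5. Of its 41 contacts 39 ran to lower coordinates, the side of FBXW4, an F-box gene whose introns hold known FGF8 enhancers. Contacts with FBXW4 numbered 14, with 3 calls in naive cells, 1, 1, 1, 2, 2 and 0 from day 1 to day 14, 1 in H9 cells, 5 in DE and 4 in NE. DPCD, the gene beyond FBXW4, took more. It had 0 calls in naive cells, 3 at day 14, 8 in DE and 9 in NE. These counts are not separate from those of FBXW4. The fragment at chr10:101608415-101613952 overlaps both genes, and its DE calls (7.40, 5.05 and 5.09) count for each. The contact from the DPCD bait at chr10:101602038-101603254 to the FGF8 side at 181 kb was called in 5 conditions (day 5 8.43, day 14 9.50, H9 7.59, DE 8.07, NE 8.48) and scored 1.19 in naive cells. Calls between 140 and 200 kb below the gene were 43 of 63.

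FGF20, a ligand of inner ear and midbrain cells, had 5 calls in naive cells, 3, 8, 12, 4, 8 and 6 from day 1 to day 14, 5 in H9 cells, 12 in DE and 9 in NE. FGF18, a ligand of the skeleton and lung, had 6 calls in naive cells, 7, 3, 5, 3, 5 and 5 from day 1 to day 14, 7 in H9 cells, 14 in DE and 6 in NE. DE thus held the highest FGF18 count and shared the highest of FGF20 with day 5. At an equal number of calls FGF18 had 7 in DE and 6 in NE. That number was the total of naive cells, which had 6, and day 1 had 7 with a total of 18327. All 58 FGF18 contacts ran to higher coordinates, and 50 of them met no protein-coding gene. Its highest score, 10.9, was called in DE alone, and the next highest score of that pair was 4.57 on day 1. FGF19, an FGF that circulates as a hormone, had 6 calls in naive cells, 9, 5, 2, 9, 4 and 3 from day 1 to day 14, 2 in H9 cells, 7 in DE and 3 in NE. A contact of its bait at chr11:69701165-69701377 with a fragment 14.7 kb from FGF3 scored 13.7 on day 7 and 9.50 in naive cells, and stayed below 5 in the other 8 conditions. FGF17 had 6 calls on day 5 and again at day 14, 5 in H9, 2 in naive cells, 1 in NE and 0 in DE.

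FGF4, an FGF of the early embryo, had 5 calls on day 1, 3 at day 14, 6 in DE and 2 in NE. FGF10, a lung and limb ligand, had 4 calls on day 7, 1 at day 14, 5 in DE and 1 in NE. FGF5, whose RNA is a classical mark of the formative and primed epiblast, had 1 call in naive cells, 5 on day 5, 4 at day 14, 0 in H9 and DE and 1 in NE. FGF9 had between 0 and 3 calls and FGF3 between 0 and 2. FGF1, without a bait, had 1 call in naive cells and 1 on day 7. The absence of FGF2 and FGF7 says only that no listed fragment overlapped them within a chromosome.

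In the BMP and TGF-beta type family GDF6, a BMP of joints and the eye, had the most calls, with 13 in naive cells, 12, 22, 14, 12, 9 and 14 from day 1 to day 14, 19 in H9 cells, 11 in DE and 19 in NE. It also had 14 listed baits, the most of the set, and the counts of the conditions ranged from 9 to 22 without one that stood apart. Of its 122 contacts 115 ran to lower coordinates and 116 met no protein-coding gene. Its highest score was 12.4 at day 14. BMP3, an antagonist among the BMPs, had 5 calls in naive cells, 2, 5, 7, 4, 6 and 7 from day 1 to day 14, 9 in H9 cells, 8 in DE and 7 in NE. Its contacts spanned a median of 666 kb, against 225 kb for all ligand contacts, and 41 of 42 ran to lower coordinates. The contact of the bait at chr4:81032382-81032892 with CFAP299, 672 kb away, was called in 6 conditions (naive 5.31, day 1 7.95, day 3 8.25, day 7 8.65, H9 6.27, NE 5.49). The next bait reached the adjoining fragment of CFAP299 with 14.0 in H9 and 5.97 in DE.

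BMP4, which drives mesoderm and amnion fates, had 0 calls in naive cells and on days 1 and 3, then 4, 3, 2 and 3 from day 5 to day 14, 3 in H9 cells, 6 in DE and 7 in NE. A count of 0 appeared in the 3 earliest conditions, although the gene had 5 listed baits. Of its 25 contacts 24 met no protein-coding gene. On the higher side, toward CDKN3, it had 1 call at day 14, 4 in DE and 5 in NE, and its highest score was 8.78 in NE at 425 kb. BMP7 had 1 call in naive cells, 3 each on days 5 and 10, 1 at day 14, 4 in H9 and 5 each in DE and NE. BMP2 had 1 call on day 3, 3 in DE, 2 in NE and 0 in the other 7 conditions.

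The activin subunit genes had moderate counts. INHBA had 2 calls in naive cells, 5 at day 14, 5 in H9 and 4 each in DE and NE, and all 31 contacts ran to lower coordinates. INHBB had 1 call in naive cells, 5 on day 10, 1 at day 14 and 3 in DE, and all 24 contacts ran to higher coordinates, the side of GLI2, a transcription factor of hedgehog signalling. NODAL, active in primed cells and endoderm, had 5 listed baits but only 3 contacts, called at day 14, in H9 and in NE. Its feedback antagonists LEFTY1 and LEFTY2 had 1 call each, in DE and in naive cells. GDF3, a NODAL-related ligand of pluripotent cells, had 1 call on day 3 and BMP5 1 on day 10. BMP6 had between 0 and 2 calls. GDF7 had 1 call at day 14, 5 on day 7 and 4 in DE, and its bait at chr2:20673993-20674545 reached a fragment 59.0 kb from APOB with 11.2 in H9, 8.03 in DE, 7.77 at day 14 and 6.71 on day 10.

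The hedgehog genes had few calls. SHH, the ligand of limb, notochord and neural tube, had 1 call in naive cells, 1, 3, 2, 0, 2 and 2 from day 1 to day 14, 6 in H9 cells, 0 in DE and 2 in NE. No contact joined SHH to LMBR1, a gene with only 0 to 2 calls within its chromosome in each condition, where CNPY1 had 13 to 76. CNPY1, on the other side of SHH, was joined by 3 contacts over 290 to 314 kb, 1 called on day 3 (5.57) and 2 in H9 (5.26 and 7.06). The SHH promoter printed above lies in the bait at chr7:155811925-155813299, which had 11 contacts and no more than 2 calls in a condition. A contact over 1215 kb from a bait 5.38 kb from MNX1, a motor neuron gene, scored 5.88 on day 3 and 6.18 in H9. IHH, a hedgehog of cartilage and gut, had 0 calls in all 7 HNES1 time points, 1 in H9, 2 in DE and 1 in NE. DHH, of the gonads and nerve sheaths, had 2 calls in naive cells, 2, 8, 7, 5, 3 and 3 from day 1 to day 14, 2 in H9 cells, 5 in DE and 3 in NE. Its contact with a TUBA1C bait at 135 kb was called in naive cells (5.42), on day 5 (5.50) and on day 7 (6.95).

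**Figure D4:**
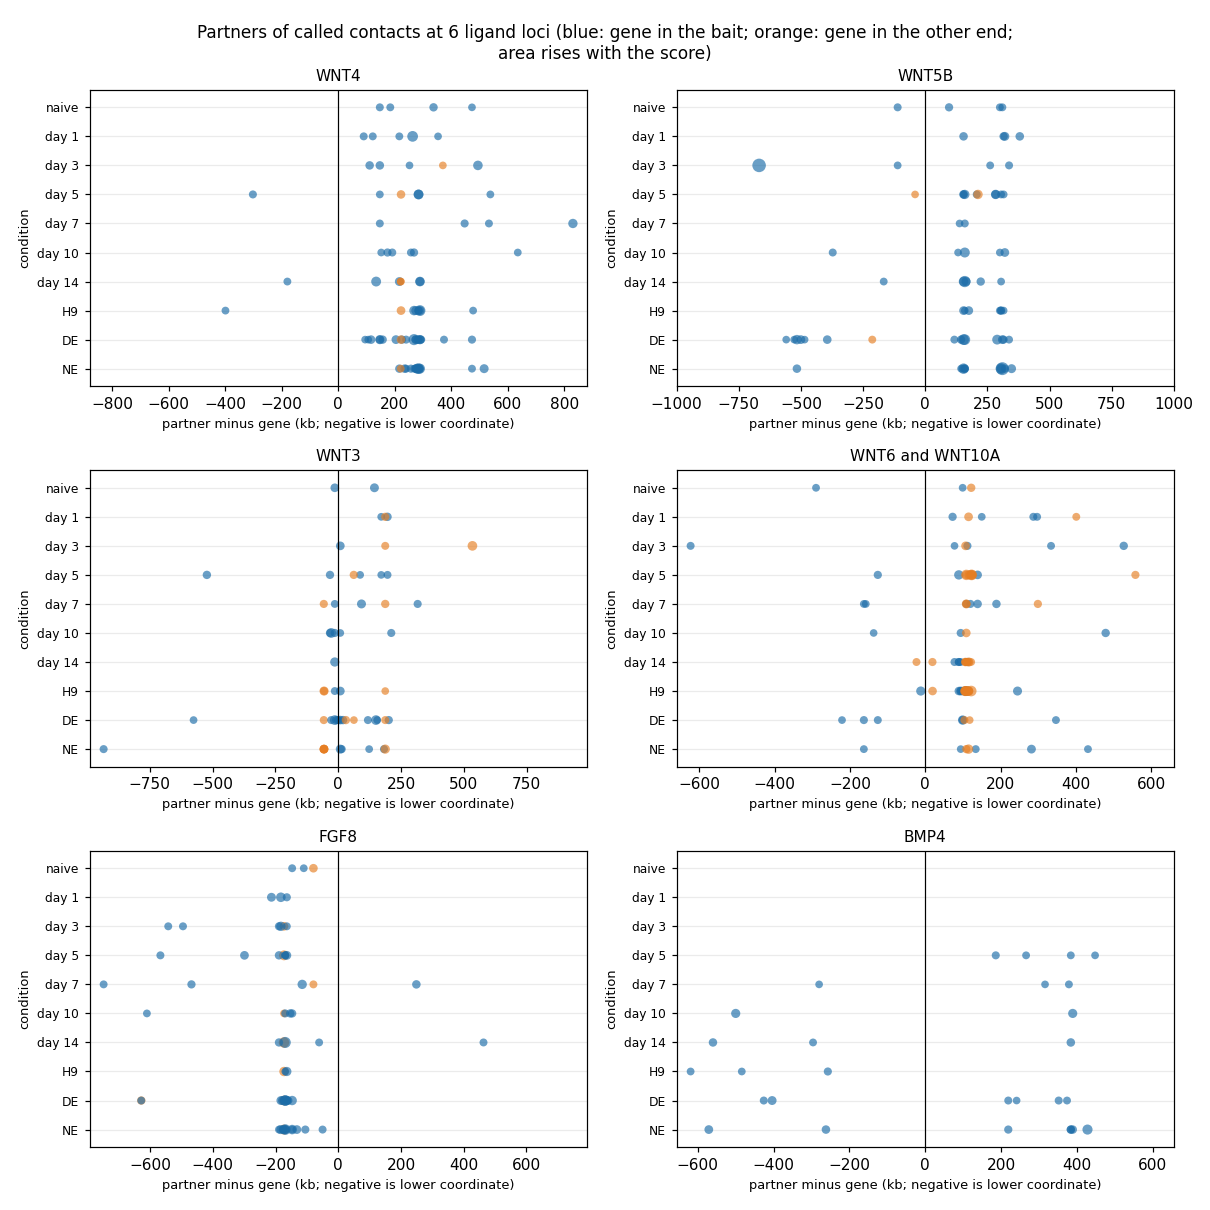
Position of the partner fragment relative to the gene (horizontal axis, kb, negative toward lower coordinates) for each called contact of WNT4, WNT5B, WNT3, WNT6 with WNT10A, FGF8 and BMP4, with 1 row per condition; blue points have the gene in the bait, orange points in the other end, and larger points score higher. WNT4 partners gathered 200 to 300 kb above the gene in DE and NE, WNT5B had lower-side partners in DE, the WNT6 and WNT10A band at 80 to 130 kb was densest in H9, and 1 WNT5B point in NE lies beyond the axis limit of 1000 kb.

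Contacts between ligand genes were rare. Besides the WNT3 and WNT9B contacts above, a WNT10A bait met a fragment of WNT6 at 14.6 kb, with 7.25 in H9. FGF19 and FGF3 were joined by 3 contacts over 110 to 118 kb, called on day 5, day 7 and day 10. WNT1 and DHH were joined by 2, called on day 5 (5.56) and in DE (5.26), DHH and WNT10B by 1 on day 10 (5.43), and FGF5 and BMP3 by 1 over 777 kb on day 3 (5.44). Each of these was called in 1 condition.

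Most ligand contacts were called in a single condition. Of the 1352 contacts, 86.4% (84.4 to 88.2) were called in 1 condition, against 85.8% of all contacts, and 8 (0.592%) were called in 5 or more, against 1967 of 182303 (1.08%). The median distance was 225 kb against 228 kb. Of 30 ligand genes with 20 or more contacts 7 (23.3%) had at least 90% of them on 1 side of the gene, and 28.5% of all genes with that many contacts did. The 7 were INHBA, INHBB, FGF18, BMP3, GDF6, WNT4 and FGF8.

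Receptors and other components of the pathways were counted by the same rule. Of 48 WNT receptor and modulator genes 42 had a contact, and their mean was 3.24 calls in naive cells, 3.02 at day 14, 6.48 in DE and 6.14 in NE, with 24 genes (57.1%) higher and 7 (16.7%) lower in DE than at day 14, beside 37.2% and 21.3% of all genes with a contact and 50.2% and 25.8% of those with a bait. Hedgehog receptors and transducers had 5.15 in naive cells, 6.92 at day 14, 8.77 in DE and 8.69 in NE, above the hedgehog ligands. Only 12 of 18 FGF receptor and feedback genes had a contact and 6 a listed bait. Their means were 1.42 in naive cells, 1.50 at day 14, 2.75 in DE and 2.92 in NE. Of the 12, 4 (33.3%) had more calls in DE than at day 14 and 2 (16.7%) fewer. BMP, nodal and activin receptors, antagonists and targets had 1.48, 1.84, 2.56 and 3.76 in the same conditions. In NE 15 of 25 (60.0%) had more calls than at day 14 and 3 fewer, beside 41.6% and 18.8% of all genes and 54.9% and 21.8% of genes with a bait. FGF and TGF-beta type ligands outside the set (17 of 28 with a contact) had means of 0.647, 0.824, 1.41 and 1.18.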

How the data were processed

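The 20 capture Hi-C libraries came from 10 conditions. The deposited matrix held 1 CHiCAGO interaction score per pair of fragments and condition, which the authors computed over both libraries of a condition, per the labels. The highest score of a listed pair was never below 5.00, so pairs under that score in every condition are absent. Distances were the authors' deposited values in bp. Coordinates were on GRCh38 per the submitters' processing notes. The aligner, the caller's version and the filters are not given in the sources used here. The depth of each library was unknown. Median lengths were 622 bp for baits and 5264 bp for other ends.

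Gene bodies came from RefSeq (GRCh38.p14), with 94 readthrough genes left out. Contacts with a score of 5 or more were counted per gene, family and condition, each contact once per set. Ratios have exact conditional binomial 95% intervals, and shares exact Clopper-Pearson intervals. Counting was checked on simulated data. The named genes were the 5 per family with the most calls (all 3 hedgehog genes) and the 3 largest changes per comparison. Other members, and the distance bands, were named after their values were seen. The members and lists were chosen with earlier results of these data known. Alternatives were thresholds of 3 and 10, an equal number of calls, other gene links, 1 end only, each pair once, no bait-to-bait contacts, repeated counting of shared contacts and leaving out GDF6. Counts at 3 leave out pairs whose highest score lay between 3 and 5, because such pairs are not listed. Promoters were the 250 bases before the RefSeq start. Python 3.11.15, pandas 2.3.3, numpy 2.4.6, scipy 1.17.1 and matplotlib 3.10.9 were used.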

Additional observations from a re-analysis of the deposited data

Results flagged for a closer look

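WNT10B and GDF6 had fewer calls in DE than at day 14 and more in NE. WNT10B had 8 calls at day 14, 2 in DE (a difference of -6) and 11 in NE (a difference of 3). GDF6 had 14 at day 14, 11 in DE (a difference of -3) and 19 in NE (a difference of 5). With 1 pooled column per condition neither difference was tested, and the counts of both genes also varied between neighbouring time points (WNT10B 1 on day 1 and 13 on day 3).

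Contacts of ligand genes between chromosomes, which the comparisons leave out, numbered 1228 in DE and 1011 in NE, against 204 at day 14. Per 1000 of all calls between chromosomes they were 6.55 in DE, 6.51 in NE and 6.49 at day 14.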

How the results depend on the processing

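No paired analysis was possible because the columns pool both libraries of a condition. The ratios of ligand calls between conditions stayed inside their intervals under most alternatives. Day 14 over naive did so at an equal number of calls (1.23), but its own interval there included 1 (0.947 to 1.59). The ratios that left their intervals were these. At a score of 10 or more, where 2 to 7 ligand contacts were left per condition compared, day 14 over naive was 3.50, H9 over day 14 0.714, DE over day 14 0.429, NE over day 14 0.286 and NE over DE 0.667. Over all contacts within chromosomes that threshold gave 1.93 for DE over day 14 and 2.48 for NE over day 14. With an equal number of 18272 calls per condition, DE over day 14 was 0.978 and NE over day 14 0.867. Counting genes in the other end alone gave 1.81 for day 14 over naive, 1.59 for H9 over day 14 and 1.03 for NE over day 14. The WNT family in DE minus day 14 changed to -3 at a score of 10 and -6 at an equal number of calls, and in NE minus day 14 to -3, to -8 and, in the other end alone, to -1. WNT4 in DE minus day 14 was -1 in the other end alone, where it had 2 calls and 1. The cause was not tested. Of 362 family and gene values under alternatives, 325 stayed within the interval of their ratio and 31 moved outside it. The 6 named above turned a difference whose interval excluded a ratio of 1. Staying within the interval is a weak check. Leaving out GDF6 repeated the main counts for every set without GDF6, and counting each pair once often did. Intervals of single genes were wide, such as 0.931 to 42.8 for WNT6 in day 14 over naive. In all 35 of the 362 had the opposite sign, 9 of them at a score of 10 and 8 at an equal number of calls. The latter include BMP and TGF-beta type genes in DE minus day 14 (-5) and NE minus day 14 (-7), and FGF genes in day 14 minus naive (-2) and NE minus day 14 (-4). Unknown depth, 1 value per condition and small counts per gene limit every comparison.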
